A study of Mus musculus with 2 samples.

Results

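Interferon-responding tumour cells are described here, the 10% of tumour cells that carried the most RNA of a small set of interferon-induced genes. They were chosen on measured values. Tumour cells were barcodes with no UMI of the leukocyte gene Ptprc and with at least 5 UMIs, and at least 10 per 10000 UMIs, of Hmga2 and Rhox5 together. A UMI is a tag that marks 1 captured RNA molecule. The score was the sum of Gbp2b, Gbp2, Gbp3, Gbp4, Ifit1, Ifit3 and Iigp1 UMIs per 10000 UMIs of the cell, and the members were the top 10% of it over both libraries pooled. This gave 2226 interferon-responding cells of 22257 tumour cells, among 34471 cells kept by the quality filters and 35436 barcodes in all.

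The cells came from subcutaneous mouse tumours, profiled by 10x Genomics single-cell RNA sequencing from mice on a control diet (1 library) and from mice on a diet lacking serine and glycine (1 library, titled SG, hereafter SG-free). The titles abbreviate the diets, which the series' design text names. The sources used here give neither the mouse strain, the tumour line, the number of mice pooled, their age nor the time on diet. With 1 library per diet there is no test and no p-value, so every difference between diets is a difference between these 2 libraries. Intervals cover counting error only, not variation between mice or between cells.

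Interferons are secreted proteins that signal to neighbouring cells. Type I interferons such as interferon beta act through the receptor Ifnar1/Ifnar2 and a complex that holds Stat2 and Irf9 and binds paired GAAA elements in promoters. Interferon gamma, made mainly by T and NK cells, acts through Ifngr1/Ifngr2 and a palindromic promoter element, and induces Irf1 and the MHC class II activator Ciita. In tumours the response is known for raising antigen presentation, chemokines that draw T cells, and the checkpoint ligand Cd274 (PD-L1). Many genes respond to both kinds of interferon, so the gene lists below are named by common usage and do not assign a ligand.

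The control library held 633 interferon-responding cells with a median of 12434 UMIs, and the SG-free library held 1593 with a median of 8937. The other tumour cells had medians of 13304 and 9618 UMIs. The threshold fell at a score of 15.6 per 10000. The lowest score inside it was 15.572 and the highest outside it was 15.562. Scores had no gap at the threshold: 213 members lay within 10% above it and 291 other tumour cells within 10% below it, so the class is a range of a continuous score. A score of 0 was found in 36.9% of the other control tumour cells and 27.4% of those in the SG-free library. The libraries shared 87 barcode sequences. A doublet caller marked 0.948% and 2.07% of the members, against 2.53% and 3.35% of the other tumour cells, and these cells were kept.

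**Figure D1:**
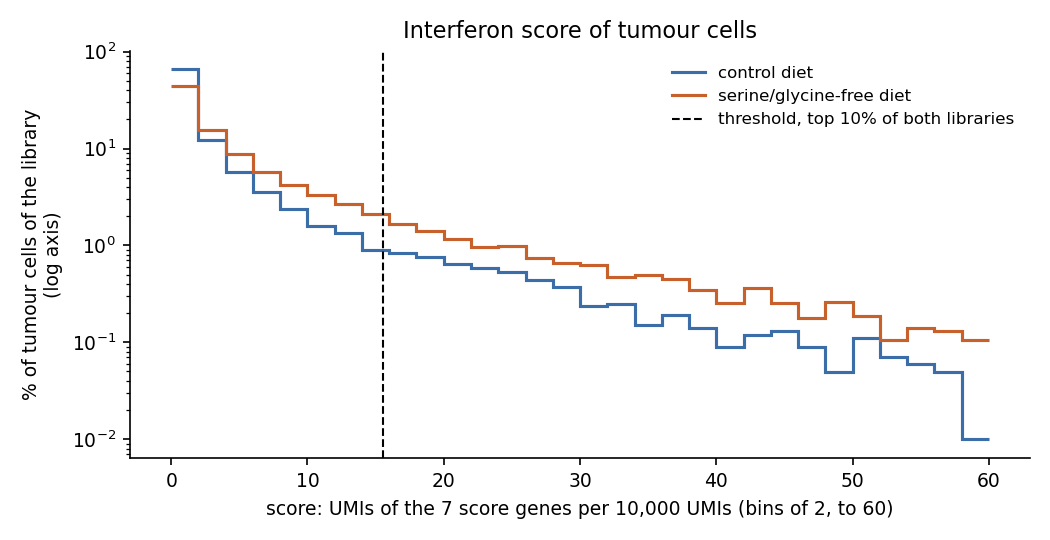
Percentage of each library's tumour cells (log axis) in bins of the score (UMIs of the 7 score genes per 10000 UMIs, bins of 2). The lines stand for the control library and the SG-free library, and the dashed line is the threshold at 15.6. The curves decline with no gap, and the SG-free line lies above the control line in every bin but the lowest. The 24 control and 92 SG-free cells with scores of 60 or more are not drawn.

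Interferon-responding cells made up 6.31% of tumour cells in the control library (633 of 10029, exact Clopper-Pearson 95% interval 5.84 to 6.81%) and 13.03% in the SG-free library (1593 of 12228, 12.4 to 13.6%). The ratio was 2.06 (95% interval 1.89 to 2.25). Because cells of the SG-free library were shallower, every tumour cell was also thinned to 3000 UMIs, which left out 32 and 90 cells below that depth. The shares were then 6.90% and 14.2%, and the ratio was again 2.06 (1.90 to 2.25). Within bands of depth the ratio was 1.47 (1.001 to 2.15) below 5000 UMIs, 1.88 from 5000 to 10000, 1.99 from 10000 to 20000 and 1.73 (1.29 to 2.31) above. At the far end of the score, the top 1% of tumour cells held 53 control cells and 170 SG-free cells, a ratio of shares of 2.63 (1.93 to 3.58). With a score of Ifit1 and Ifit3 alone the ratio was 1.52.

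The score was carried mostly by guanylate-binding proteins, GTPases that attack the vacuoles of intracellular microbes. Gbp2b gave 31.3% of the members' score UMIs in the control library and 29.9% in the SG-free library, and Gbp2 gave 21.8% and 21.3%. Iigp1, an immunity-related GTPase, gave 16.4% and 19.7%. Ifit1 and Ifit3, which bind foreign RNA and are classical targets of type I interferon, together gave 10.1% and 7.08%. The rule used these genes, so their levels describe the choice. Gbp2b stood at 870.2 CPM (UMIs per 1000000 UMIs of the summed cells) in members and 56.7 CPM in other tumour cells of the control library, and at 896 and 94.7 CPM in the SG-free library. In cells with a Ptprc UMI, Gbp2b stood at 111 and 219 CPM. That is below the members, which were chosen for high levels of it, and above the other tumour cells. These cells are not a pure leukocyte reference. Hmga2 stood at 990 and 1183 CPM in them, against 2136 and 2100.5 CPM in other tumour cells.

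The tumour label was checked on genes the rule did not use. Krt20, a keratin, stood at 139 CPM in control members and 151 in the other control tumour cells, and at 154 and 195 in the SG-free library, against 68.0 and 110.3 CPM in cells with a Ptprc UMI. Krt18 stood at 26.1, 31.3, 7.53 and 10.7 CPM in the same 4 groups. In cells with a Ptprc UMI it stood at 13.6 CPM in the control library and 6.005 CPM in the SG-free library. The 6 pan-leukocyte markers summed to 15.7 CPM in control members and 13.1 in the other control tumour cells, and to 22.1 and 20.8 CPM under the SG-free diet, against 1969 and 1615 CPM in cells with a Ptprc UMI. Ptprc was at 0 by the rule and the other 5 markers were above 0 in every group. The 7 fibroblast markers were higher in members, at 130 CPM against 61.2 in the control library and 114 against 62.2 in the SG-free library. Among them Col3a1 stood at 68.9 and 32.7 CPM in the control library, where 1 cell held 38.5% of the members' Col3a1 UMIs. The 6 endothelial markers summed to 21.3 CPM in control members and 3.499 in the other control tumour cells, with 1 member holding 3 or more of their UMIs, and to 6.09 and 8.45 CPM in the SG-free library. The 7 B and plasma cell markers summed to 4.73 and 4.01 CPM in the control library and to 234 and 77.4 CPM in the SG-free library, most of it Igkc, of which 1 member held 96.5%. The part of other cell types in the results below was not tested beyond the counts given with them.

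Across 9592 genes outside the score with a mean of at least 5 CPM over the 4 groups, 145 (1.51%) were at least 2-fold higher in members than in other tumour cells in both libraries, and 4 (0.0417%) were at least 2-fold lower in both. That mean includes the members, so a gene can pass the filter through its level in members alone. Counts of listed genes higher in members lean on this. Log2 ratios are given on the scale of log2(CPM + 1) throughout. The median over all tested genes was -0.01 in the control library and 0.02 in the SG-free library. When tumour cells with 3 or more UMIs of any marker list of another cell type were removed, a check added after the data were seen, 144 genes were at least 2-fold higher.

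Cxcl10, a chemokine that recruits CXCR3-bearing T cells, had the highest ratio. It stood at 246 CPM in members and 6.23 CPM in other tumour cells of the control library, and at 206 and 7.92 CPM in the SG-free library. The log2 ratios were 5.09 and 4.54. Rsad2 (viperin), an antiviral enzyme that makes a chain-terminating nucleotide, stood at 78.1 and 2.56 CPM in the control library and 43.2 and 2.72 CPM in the SG-free library, log2 ratios of 4.47 and 3.57. Without the pseudocount the 95% counting interval of the log2 ratio was 5.19 to 5.42 and 4.60 to 4.81 for Cxcl10, and 4.74 to 5.12 and 3.79 to 4.19 for Rsad2. These intervals treat UMIs as independent, although few members held most UMIs of both genes, so they set no bound on the difference between the libraries.

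Of 63 listed type I interferon-stimulated genes, 56 were measured above the filter. All 56 were higher in members in both libraries, and 40 were past 2-fold in both, against 1.51% of all genes tested. The median log2 ratio was 1.90 in the control library and 1.44 in the SG-free library. Ifit3b, a close copy of Ifit3 whose reads may be split between them, stood at 51.6 against 2.09 CPM in the control library and 36.3 against 2.74 CPM in the SG-free library. Isg15, a ubiquitin-like modifier, stood at 248 against 37.4 CPM and 177 against 40.1 CPM. Its protease Usp18, which also dampens type I receptor signalling, stood at 106 against 11.3 CPM and 68.9 against 12.9 CPM. Ly6a (Sca-1) was abundant in both libraries, at 534 against 70.3 CPM and 746 against 149 CPM. Zbp1, a sensor of Z-form nucleic acid that can trigger necroptosis, stood at 284 against 37.6 CPM and 230.0 against 49.6 CPM. The genes below the filter were not counted, and the filter favours genes high in members. Among them in the control library, Ifit1bl1 stood at 2.31 against 0.088 CPM and Ms4a4c at 0.923 against 0.917 CPM.

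All 16 measured interferon-induced GTPases outside the score (20 listed) were past 2-fold in both libraries, with medians of 2.78 and 2.39. Some passed the filter only through the members, such as Gbp10, at 12.2 against 0.998 CPM and 18.7 against 2.12 CPM. Below the filter in the control library, Gvin1 stood at 4.96 against 0.954 CPM and 9930111J21Rik1 at 1.27 against 0.726 CPM. Gbp5, which promotes inflammasome assembly, stood at 85.8 against 4.23 CPM in the control library and 89.8 against 7.13 CPM in the SG-free library. Igtp (Irgm3), Irgm1 and Irgm2 regulate the other immunity-related GTPases at membranes, and Igtp stood at 167 against 16.7 CPM and 189 against 28.4 CPM. Gbp7 stood at 481 against 58.5 CPM and 505 against 92.8 CPM. These genes lie in tandem families, so part of their counts may be shared between near-identical copies such as Tgtp1 and Tgtp2.

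Antigen presentation genes were higher by less, from a high base. Of 22 measured MHC class I and peptide-loading genes (24 listed), 20 were higher in both libraries and 9 were past 2-fold in both, with medians of 0.81 and 0.69. The classical heavy chain H2-K1 stood at 1353 against 975 CPM in the control library and 1602 against 1235 CPM in the SG-free library, log2 ratios of 0.47 and 0.38. H2-D1 gave 0.28 and 0.27, and the light chain B2m gave 0.38 and 0.40. The parts that cut and move peptides differed by more: the immunoproteasome subunit Psmb10 gave 1.85 and 1.54, Psmb9 1.40 and 1.20, and the peptide transporter subunit Tap1 1.82 and 1.28. Calr, a general chaperone, stood at 529.6 against 539.9 CPM in the control library, and with Canx it was one of the genes not higher in both.

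MHC class II genes, which most tumour cells express little, were higher in members. Of 11 listed genes 7 passed the filter, all 7 were higher in both libraries and 5 were past 2-fold in both, with medians of 1.17 and 1.28. Cd74, the invariant chain, stood at 99.6 against 36.4 CPM in the control library and 223 against 77.3 CPM in the SG-free library. H2-Aa stood at 31.0 against 12.0 CPM and 91.0 against 36.8 CPM. Their activator Ciita lay below the filter, with 47 UMIs in control members (5.42 CPM) against 73 UMIs in the far larger group of other control cells (0.536 CPM), and 132 UMIs (8.28 CPM) against 118 (1.02 CPM) under the SG-free diet. Macrophages carry many class II transcripts, so C1qa, C1qb and C1qc were measured beside them, which covers C1q-bearing macrophages only. In members the sum of Cd74, H2-Aa, H2-Ab1 and H2-Eb1 was 3.08 and 5.92 times the summed C1q genes. The same ratio was 1.85 and 2.59 in other tumour cells and 1.03 and 1.99 in cells with a Ptprc UMI. C1q itself was somewhat higher in members, at 52.6 against 33.8 CPM and 72.5 against 62.7 CPM.

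**Figure D2:**
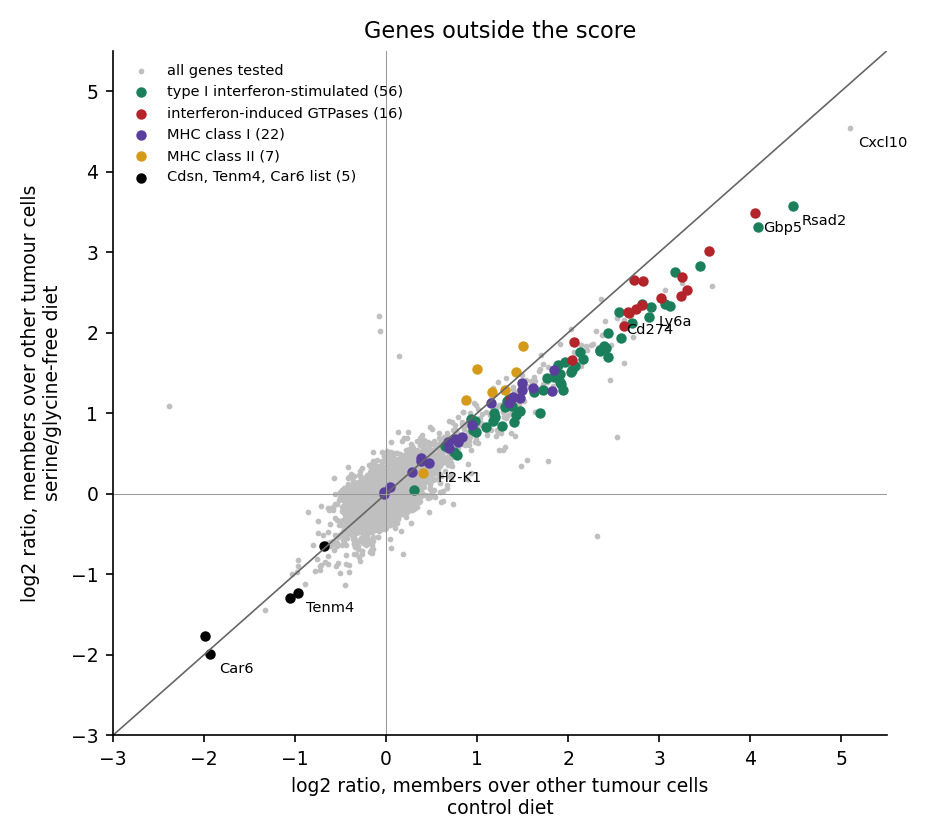
Each point is a gene outside the score, with its log2 ratio of members over other tumour cells in the control library (x axis) and in the SG-free library (y axis). Colours mark gene lists with the number of measured genes, and the diagonal marks equal ratios. Interferon lists lie at the upper right and mostly below the diagonal, and Car6 and Tenm4 lie at the lower left.

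The receptors differed little while the factors downstream of them differed clearly. Ifnar1 gave log2 ratios of -0.03 and -0.04 and Ifngr2 gave 0.10 and -0.07. Ifngr1 stood at 35.2 against 25.6 CPM in the control library and 39.0 against 32.3 CPM in the SG-free library, and Ifnar2 gave 0.29 and 0.15. The kinases Jak1 and Jak2 stayed under 0.27 in both. By contrast Stat2 stood at 68.6 against 13.6 CPM and 67.8 against 18.1 CPM, log2 ratios of 2.26 and 1.84, and Irf9 and Irf1 were also past 2-fold in both libraries, with 1.43 and 1.15 for Irf9 and 2.07 and 1.76 for Irf1. The median of the 14 measured genes of receptors and signalling (16 listed) was 0.37 in the control library and 0.26 in the SG-free library. Irf7, which amplifies type I interferon production, stood at 130 against 24.7 CPM and 106 against 30.3 CPM. Among feedback inhibitors Socs1 gave 1.32 and 1.27 and Socs3 gave 0.36 and 0.42.

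Some sensors, death genes and checkpoint ligands were higher in members and others were not. The RNA sensor Ifih1 (MDA5) gave log2 ratios of 2.58 and 1.94 and Ddx58 (RIG-I) gave 1.77 and 1.44, whereas their adaptor Mavs gave -0.02 and -0.24. Of 15 measured nucleic acid sensing genes 6 were past 2-fold in both libraries, and of 18 measured cell death genes 4 were, against 1.51% of all genes tested. These counts overlap the type I list, which also holds Ifih1, Ddx58, Dhx58, Zbp1 and Xaf1, so they are not separate from it. Cd274, the ligand of PD-1, stood at 61.6 against 9.72 CPM in the control library and 56.9 against 11.4 CPM in the SG-free library, log2 ratios of 2.55 and 2.22. Ido1, which degrades tryptophan, stood at 12.0 against 1.504 CPM and 9.72 against 1.73 CPM. Cd47, a signal against phagocytosis, gave 0.39 and 0.27, and the poliovirus receptor Pvr was lower by -0.24 and -0.58.

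Promoters of the genes that moved together were searched for the 2 elements named above, in the 250 bases before each start site in RefSeq sequences of GRCm38.p6, the same build as the authors' mm10. The first motif was a pair of GAAA blocks with any 2 bases between them, on either strand (TTTC blocks on the other strand), which is the core bound by Irf factors. The second was the palindrome TTCNNNGAA. Of the 145 genes past 2-fold, 110 matched the table by symbol, with 138 promoters. The GAAA pair was in 26.8% of these promoters, in 2.88% of promoters of all tested genes with an entry (7668 of 9599, score genes included) and in 2.98% of all 32851 promoters in the table. TTCNNNGAA was in 14.5%, 5.71% and 7.02%. By list, the GAAA pair was in 7 of 9 GTPase promoters (9 of 16 genes had an entry), 17 of 55 type I promoters and 3 of 21 MHC class I promoters, and TTCNNNGAA was in 6 of 9, 5 of 55 and 2 of 21. A match is a description of letters, not of binding. Gbp4, Iigp1 and Zbp1 were not in the table.

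Windows of 7 chosen promoters are printed as examples. Only promoters that hold a motif were eligible, so the windows do not show how often the lists hold one. Capitals mark the motif bases, each window runs 5′ to 3′ on the gene's strand, and positions count back from the base before the start site.
Ifit3: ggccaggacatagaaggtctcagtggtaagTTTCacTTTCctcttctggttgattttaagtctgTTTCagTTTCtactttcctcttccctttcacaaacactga
Rsad2: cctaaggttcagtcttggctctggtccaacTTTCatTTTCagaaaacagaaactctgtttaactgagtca
Isg15: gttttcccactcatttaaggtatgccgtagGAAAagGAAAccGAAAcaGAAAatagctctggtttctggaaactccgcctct
Cxcl10: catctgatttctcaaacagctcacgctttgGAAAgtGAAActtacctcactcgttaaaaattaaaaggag
Gbp2: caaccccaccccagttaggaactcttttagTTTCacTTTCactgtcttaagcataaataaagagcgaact
Igtp: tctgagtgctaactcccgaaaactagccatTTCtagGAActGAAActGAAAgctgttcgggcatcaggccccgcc
Irf1: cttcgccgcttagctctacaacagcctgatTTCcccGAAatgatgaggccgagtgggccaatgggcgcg
The Ifit3 window (chr19:34583343-34583446, plus strand) holds 2 GAAA pairs, at -156 and -122. Rsad2 (chr12:26456533-26456602, minus strand) holds 1 pair at -120, Cxcl10 (chr5:92349063-92349132, minus strand) 1 pair at -213, and Gbp2 (chr3:142620574-142620643, plus strand) 1 pair at -59. Isg15 (chr4:156200845-156200926, minus strand) holds 3 overlapping pairs at -78, -72 and -66. Igtp (chr11:58199481-58199555, plus strand) holds both motifs next to each other, TTCNNNGAA at -45 and the GAAA pair at -34. Irf1 (chr11:53769894-53769962, plus strand) holds TTCNNNGAA alone, at -90.

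Few genes were lower in members. The 4 genes at least 2-fold lower in both libraries were Car6, Cdsn, Angptl6 and Cox6a2, and the last of these was named after its values were seen. Car6, a secreted carbonic anhydrase, stood at 12.6 against 50.7 CPM in the control library and 8.22 against 35.6 CPM in the SG-free library. Cdsn, an adhesion protein of cornified epithelium, stood at 2.77 against 14.0 CPM and 1.63 against 7.98 CPM. Tenm4, a transmembrane teneurin, stood at 70.8 against 139 CPM and 32.4 against 77.5 CPM. These genes belong to a list of 5 tumour genes known from earlier results of these data to vary together, and its medians were -1.06 and -1.29. A second such list, led by Cp, Aspn and Ogn, had medians of 1.09 and 0.76. In it C1s1, a complement protease, stood at 47.1 against 13.5 CPM and 60.045 against 22.7 CPM. The 17 measured extracellular matrix genes (27 listed) had medians of 0.31 and 0.38, with 14 higher in members in both libraries. Fibroblast markers were higher in members too, as given above, and the part of stromal cells in either list was not tested.

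Most stress and metabolic lists differed by less and had medians of the same sign in both libraries. Oxidative phosphorylation genes did not, with medians of -0.01 and 0.03. The 23 measured ATF4 targets, genes of the amino acid and endoplasmic reticulum stress response, had medians of -0.20 and -0.36. The stress factor Ddit3 (CHOP) stood at 113 against 186 CPM in the control library and 64.2 against 119.7 CPM in the SG-free library, and Trib3 at 20.2 against 34.0 CPM and 13.9 against 26.7 CPM. An exception was Wars, a tryptophan tRNA synthetase that interferon gamma also induces, at 118 against 46.2 CPM and 78.6 against 39.6 CPM. Serine synthesis and one-carbon genes had medians of -0.14 and -0.17, with 17 of 22 lower in both libraries and none past 2-fold. Mthfd2, a mitochondrial folate enzyme, stood at 149 against 183 CPM and 138 against 192 CPM. Hypoxia genes gave -0.18 and -0.32 and glycolysis genes -0.09 and -0.12. The 28 proliferation genes gave 0.07 and 0.07, and none was past 2-fold in either direction in both libraries.

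Levels were then followed over bands of the score, since the threshold cuts a continuous range. Gbp7 went gradually from 19.9 CPM in control cells with a score of 0 to 203 CPM in the band just below the threshold, 388 CPM just above it and 916 CPM in the top 1%, and in the SG-free library from 27.7 to 214, 379 and 877 CPM. Cxcl10 had another shape. It stood at 23.8 CPM just below the threshold, 173 CPM just above it and 796 CPM in the top 1% of the control library, and at 19.3, 105 and 887 CPM in the SG-free library. Car6 ran the other way, with most of its difference below the threshold, from 80.4 CPM at a score of 0 to 17.0 CPM just below the threshold in the control library. Mki67, a marker of cycling cells, stood at 124 CPM at a score of 0 and between 142 and 191 CPM in all other bands of the control library.

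**Figure D3:**
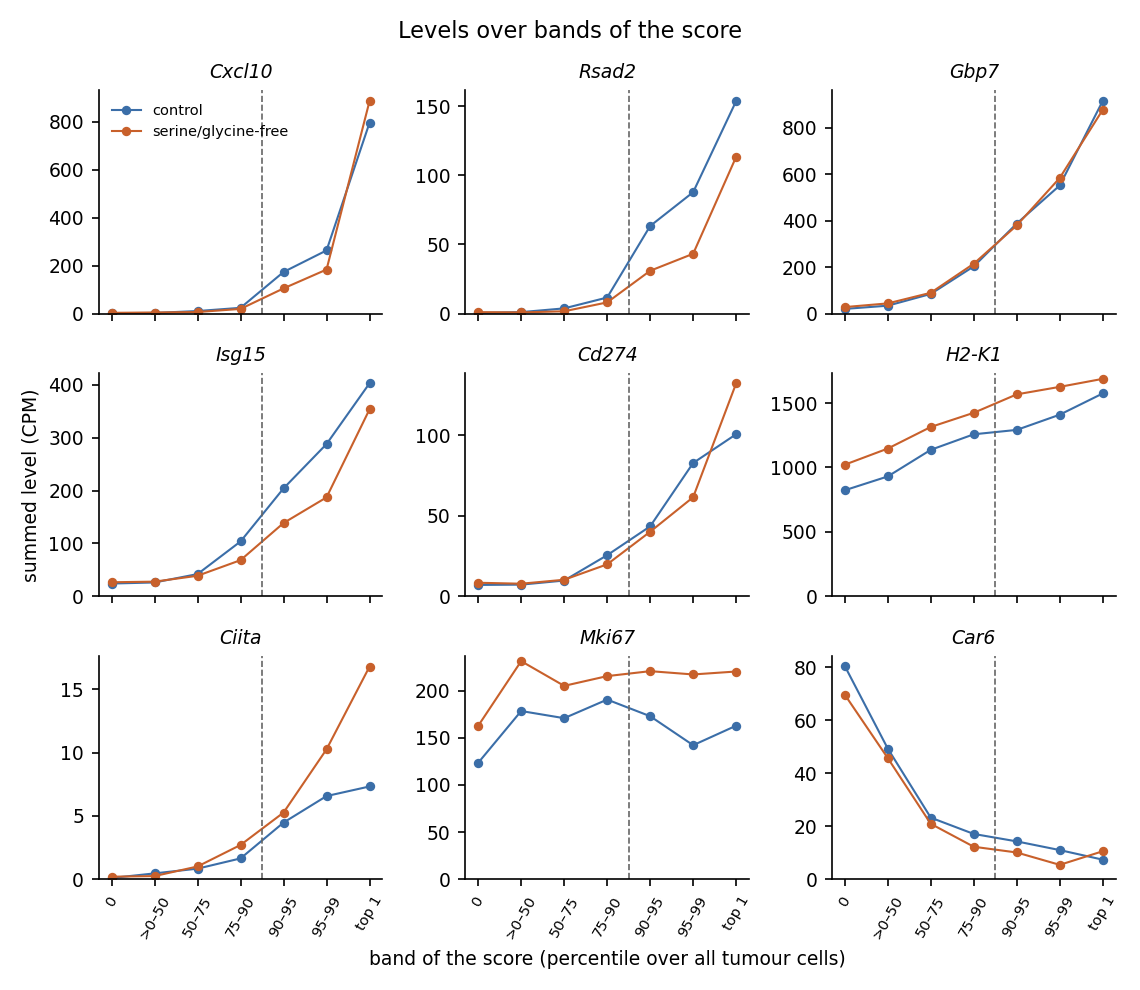
Summed level in CPM (y axis, from 0, a different scale in each panel) of 9 genes over 7 bands of the score (x axis, percentiles over all tumour cells) in the control library and the SG-free library. The dashed line marks the threshold for membership. Gbp7 climbs gradually, Cxcl10 climbs mostly above the threshold, Mki67 is lowest at a score of 0 and Car6 is highest at a score of 0.

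Members did not hold these genes equally. Among control cells the 63 members with most Cxcl10 UMIs, 10% of them, held 82.3% of all Cxcl10 UMIs in members, and in the SG-free library the top 159 held 86.3%. For Isg15, with nearly the same number of UMIs in control members (2146 against 2132), the top 10% held 45.7%, and 52.0% in the SG-free library. Rsad2 gave 81.7% and 90.9%, from only 677 and 689 UMIs. Ccl2, a monocyte chemokine, gave 70.4% and 76.8%. By contrast Zbp1 (2462 and 3666 UMIs) gave 29.4% and 31.9%. Gbp7 (4172 and 8053 UMIs) gave 25.9% and 27.2%, and H2-K1 (11730 and 25525 UMIs) 22.4% and 23.9%. The percentage also depends on the number of UMIs. Cd274 went from 51.3% to 79.1% in control members with cells thinned to 3000 UMIs. With members taken from cells thinned to 3000 UMIs, Cxcl10 gave 89.1% and 92.0% and Isg15 54.5% and 64.2%, so the order of these 2 genes held at equal depth.

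**Figure D4:**
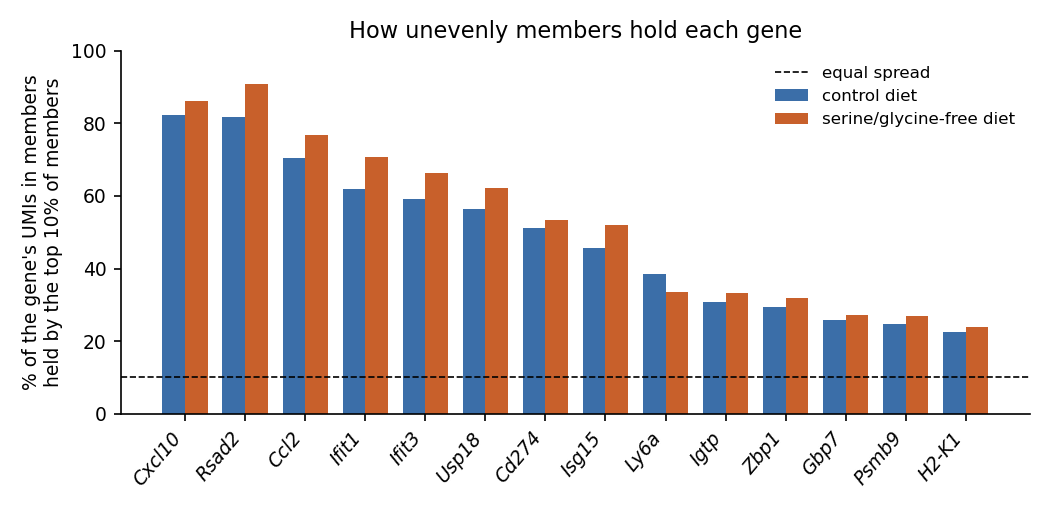
Percentage of each gene's UMIs in members that was held by the top 10% of members for that gene, in the control library and the SG-free library. The dashed line marks 10%, the value if every member held the same number. Cxcl10, Rsad2 and Ccl2 stand highest, and Gbp7, Psmb9 and H2-K1 lowest. The genes differ in their number of UMIs, on which this percentage also depends.

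Members also differed in the balance of Ifit to Gbp genes. In 36 control members and 59 SG-free members, Ifit1 and Ifit3 made up at least 50% of the score UMIs. These Ifit-weighted cells were 5.69% of control members (4.01 to 7.79%) and 3.70% of SG-free members (2.83 to 4.75%). Against the other members, 154 of the tested genes (1.61%) were at least 1.5-fold higher in both libraries and 671 (7.0%) at least 1.5-fold lower in both. The small number of Ifit-weighted cells limits the precision of every value. Ratios in this split leaned low in general, with medians over all genes of -0.18 and -0.15. How far low counts in so few cells shape the counts of lower genes was not tested. Of the 56 type I genes 49 were higher in Ifit-weighted cells in both libraries, with medians of 0.94 and 1.17. Rsad2 stood at 522 against 52.1 CPM in the control library and 425 against 31.3 CPM in the SG-free library. MHC class I genes were lower in both libraries for 16 of 22, with medians of -0.18 and -0.29 beside medians over all genes of -0.18 and -0.15. Proliferation genes were lower in both for 24 of 28, with medians of -0.46 and -0.66. All 5 genes of the Cdsn, Tenm4 and Car6 list, which were low in members as a whole, were higher in the Ifit-weighted members, with medians of 1.03 and 2.37. With the split at an Ifit share of 20%, a check added after the data were seen, the groups held 137 and 207 Ifit-weighted cells, and the medians were 1.64 and 1.51 for type I genes, -0.51 and -0.43 for proliferation genes and 1.13 and 1.41 for the Cdsn, Tenm4 and Car6 list.

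Within interferon-responding cells, diet was compared over the sums of members of each library. Of the 9592 genes, 156 (1.63%) were at least 1.5-fold higher under the SG-free diet and 136 (1.42%) at least 1.5-fold lower. In the other tumour cells the counts were 147 (1.53%) and 93 (0.97%). With ratios centred on the median over all genes the members' counts were 120 higher and 170 lower. For the genes with the highest ratios, Igkc, Ighg1 and Slpi, 1 cell held 96.5%, 94.3% and 95.2% of the SG-free members' UMIs. The log2 ratios were 6.95, 5.74 and 4.11 with each gene's largest cell and 2.37, 2.11 and 0.63 without it in each group. In the other tumour cells they were 5.39, 3.46 and 2.03, and Igkc there stood at 0.638 and 67.7 CPM.

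MHC class II genes were higher under the SG-free diet. All 7 measured genes were at least 1.5-fold higher in members under the SG-free diet, with a median of 1.16, and all 7 were higher in the other tumour cells, with a median of 1.07. H2-Ab1 stood at 12.5 CPM in control members and 53.1 CPM in SG-free members, and H2-Aa at 31.0 and 91.0 CPM. The largest single cell held at most 5.56% of the H2-Ab1 UMIs of members in either library. Over the same members C1q stood at 52.6 and 72.5 CPM. Ciita stood at 5.42 and 8.28 CPM. The 11 macrophage markers summed to 138 CPM in control members and 213 CPM in SG-free members, and to 106 and 190.1 CPM in the other tumour cells, against 12636 and 7799.7 CPM in cells with a Ptprc UMI. C1q and macrophage markers do not cover other carriers of class II. In cells with a Ptprc UMI, class II over C1q was 1.03 and 1.99. There B and plasma cell markers summed to 413 and 1437 CPM and dendritic cell markers to 91.3 and 74.0 CPM. The part of such cells was not tested. In tumour cells without a UMI of 13 leukocyte genes the class II diet median was 1.11 in members and 0.73 in the other tumour cells, and with doublet calls removed it was 1.08 and 0.72. Without those leukocyte UMIs the median ratio of members over other tumour cells was 1.64 in the control library and 1.69 in the SG-free library, in place of 1.17 and 1.28.

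The interferon lists split by kind. Median scores were 24.5 and 26.0 in members of the control and SG-free libraries, and 0.838 and 1.89 in other tumour cells. The other tumour cells were thus not matched on the score between the libraries. The 16 GTPases were higher under the SG-free diet in members for 13, with a median of 0.13, and in the other tumour cells for all 16, with a median of 0.64. MHC class I genes were higher for 19 of 22 in members, with a median of 0.06, and for 20 of 22 in the others, with a median of 0.22. The median over all genes tested was 0.04 in members and 0.03 in the others, so the class I median in members lay near it. Type I interferon-stimulated genes were lower in members for 49 of 56, with a median of -0.21, while 48 of 56 were higher in the other tumour cells, with a median of 0.19. Of these 56 genes 4 were past 1.5-fold lower in members: Rsad2 (78.1 and 43.2 CPM), Oasl1 (86.3 and 42.0 CPM), Usp18 (106 and 68.9 CPM) and Tor3a (56.6 and 35.6 CPM). With the top 10% taken within each library the log2 ratio of Rsad2 was -0.11 in place of -0.84, and with scores without or of only the Ifit genes it was -0.57, so in those settings it was not past 1.5-fold. Ly6a went the other way, at 534 and 746 CPM. The score genes chose the members and add nothing to this: Ifit1 stood at 142 and 105 CPM and Iigp1 at 456 and 590 CPM, and at a given score more of one leaves less for the other.

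The direction of the type I list in members depends on how members are set. With the top 10% taken within each library, which admits more control cells and fewer SG-free cells, the median was 0.10 in place of -0.21, and the GTPase median was 0.62 in place of 0.13. At matched bands of the pooled score, the type I median was 0.15 in cells with a score of 0, -0.04 between the 50th and 75th percentiles, -0.14 in the band below the threshold, -0.25 and -0.32 in the bands above it and -0.17 in the top 1%. The bands below the threshold hold other tumour cells, so the type I median was below 0 in those of them from the 50th percentile up. The GTPase median was above 0 in all 7 bands, from 0.04 to 0.46, each below the 0.64 of all other tumour cells together. In members with an Ifit share under 20% of their score UMIs, 496 control and 1386 SG-free cells, the type I median was -0.02, and in those at or above 20% it was -0.07. With the split at 50% the type I median was -0.21 in members under that share (597 control and 1534 SG-free cells, 48 of 56 genes lower) and 0.025 in the 36 and 59 Ifit-weighted members. The values at 20% thus lay nearer 0 than those of most members at the 50% split. Members at or above that share numbered 137 of 633 in the control library and 207 of 1593 in the SG-free library.

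**Figure D5:**
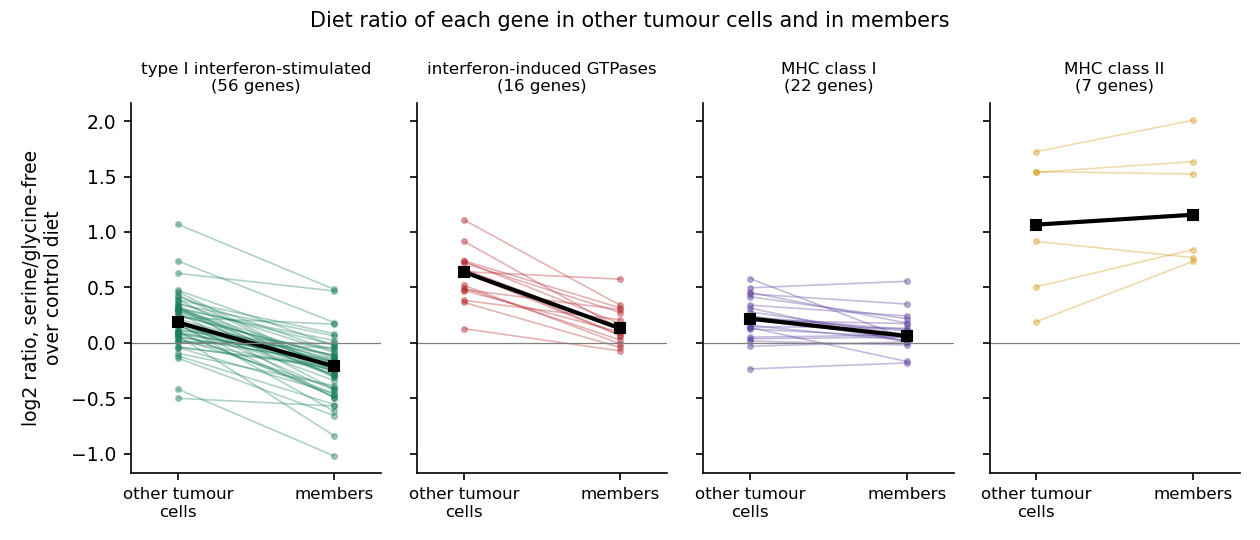
Log2 ratio of the SG-free over the control library (y axis) for each measured gene of 4 lists, in other tumour cells and in members, joined by a line. Black squares are medians. Other tumour cells were not matched on the score between the libraries, with median scores of 0.838 and 1.89. The type I median goes from 0.19 to -0.21 and the GTPase median from 0.64 to 0.13, whereas the MHC class II median is 1.07 in other tumour cells and 1.16 in members.

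Outside the interferon lists, the genes with the highest and lowest diet ratios in members had ratios of the same direction in other tumour cells. Id1, a target of BMP signalling, stood at 30.9 CPM in control members and 76.5 CPM in SG-free members, and at 19.1 and 45.6 CPM in the other tumour cells. Sgk1, a kinase of ion transport, stood at 42.2 and 103.7 CPM in members, and Cebpd, an inflammatory transcription factor, at 68.2 and 163 CPM. Dlgap2 had the lowest ratio, at 40.6 and 4.58 CPM in members and 37.9 and 4.96 CPM in the others. The list of 5 tumour genes led by Dlgap2, Sorcs2 and Gria1 had medians of -1.43 in members and -1.46 in the others. Lama2, a laminin chain, stood at 34.8 and 8.53 CPM in members. All 28 proliferation genes were higher under the SG-free diet in members, with a median of 0.35, and all 28 in the others, with a median of 0.37. Serine synthesis and one-carbon genes had medians of -0.03 in members and 0.04 in the others, and none of the 22 was past 1.5-fold in members. Psat1, an enzyme of serine synthesis, stood at 81.3 and 101.8 CPM in members. Among checkpoint genes Cd274 gave a log2 ratio of -0.11 in members and 0.21 in the others.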

How the data were processed

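The authors deposited raw counts of UMIs per gene and barcode for 2 libraries, made with Cell Ranger, version 2.2.2 on mm10 per the submitters' processing notes and version 7.0.1 per the file headers. The sources used here name no annotation release. The labels' protocols describe human cardiac tissue, which disagrees with the mouse tumour labels.

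Cells needed 500 UMIs, 300 genes and no more than 20% mitochondrial UMIs (14159 and 20312 cells). Members and gene lists were chosen with earlier results of these data known. Score genes were left out of all counts. UMIs were summed per group and library, scaled to CPM and compared as log2(CPM + 1) ratios over genes with a mean of at least 5 CPM. Named genes were the 20 highest and 10 lowest by the smaller ratio of both libraries and the 10 highest and lowest by diet, all with at least 20 CPM, up to 6 per list, and fixed receptors, signalling and antigen genes. A gene of this pathway is not reported here. Doublets were called with Scrublet in scanpy 1.11.5 and removed in an alternative only. Intervals at 95% are exact Clopper-Pearson for shares and log-normal for their ratios. The ratio functions were tested on simulated data. Alternatives changed the cell filters, depth, threshold, score, pseudocount, gene filter, scaling and averaging. Python 3.11.15, numpy 2.4.6, scipy 1.17.1 and pandas 2.3.3 were used.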

Additional observations from a re-analysis of the deposited data

Results flagged for a closer look

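For 7 gene lists the median log2 ratio of the SG-free over the control library had opposite signs in interferon-responding cells and in other tumour cells. None of these differences was tested, since each diet had 1 library. Signs are taken around 0, while the median over all genes tested was 0.044 in members and 0.025 in other tumour cells. Several of the list medians lie close to these values. The type I interferon-stimulated genes gave -0.21 in members and 0.19 in other tumour cells. Nucleic acid sensing genes gave -0.16 and 0.095, and in members Ifih1 gave -0.31 and Dhx58 -0.42, against 0.33 and 0.32 in the others. Ifih1 and Dhx58 are on the type I list too, so the sensing list is not separate from it. Cell death genes gave -0.039 and 0.22, with Zbp1 and Xaf1 on both this list and others. Checkpoint genes gave -0.033 and 0.12, and genes of interferon receptors and signalling gave -0.015 and 0.25. Extracellular matrix genes gave -0.10 and 0.009, both below the median over all genes tested. Serine synthesis and one-carbon genes gave -0.029 and 0.038. The pooled threshold cuts the score at the same height in both libraries, and with a threshold within each library the type I median was 0.10 in members.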

How the results depend on the processing

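The share ratio stayed above 1 under all 11 alternatives, from 1.52 with a score of Ifit1 and Ifit3 alone to 2.34 with the top 5%. The 145 genes higher in members ranged from 95 with that Ifit score to 180. The 4 lower genes became 1 with that score or a pseudocount of 5 CPM, and 2 with a mean of at least 20 CPM. They became 7 in cells with no UMI of any of 13 leukocyte genes or with each gene's largest cell left out. They became 8 with a pseudocount of 0.1 CPM or totals without mitochondrial and ribosomal genes. The diet counts in members (156 higher, 136 lower) became 483 and 283 after thinning to 3000 UMIs, 73 and 62 with a mean of at least 20 CPM, 521 and 423 without a filter, 88 and 84 with a pseudocount of 5 CPM, and 325 and 232 with the top 5%. In cells with no UMI of any of the 13 leukocyte genes 278 were higher. The type I diet median in members was 0.10 with a threshold within each library, -0.29 with the top 5%, -0.15 with a score without Ifit1 and Ifit3, and -0.019 at an Ifit share under 20%. The GTPase median was 0.62 with a threshold within each library and 0.40 with the Ifit score, and the MHC class I median 0.25 and 0.21 there and 0.019 when centred. Under the threshold within each library Cxcl10 gave 0.65 and Cd274 0.31. With the Ifit score Cxcl10 gave 0.029 and Cd274 0.20, and with a score without Ifit genes Cxcl10 gave 0.10. The ratio of Ifit shares by diet was 0.70, and 0.75 in cells with no UMI of any of the 13 leukocyte genes. Of 23 lists, 7 were higher in Ifit-weighted members in both libraries, and 11 when centred. The causes were not tested. No paired analysis was possible because each diet had 1 library. Genes with few UMIs in members, such as Ciita and Ifnb1, are limited by depth.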

Other observations

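Interferon ligands were almost absent from these cells, with an exception in a few of them. Of the interferon alpha genes Ifna1, Ifna2, Ifna4, Ifna5 and Ifna6, none had a UMI in any tumour cell. Ifng had 2 UMIs in members and 18 in the other tumour cells of both libraries together, of 996 in all kept cells. Ifnb1, which encodes interferon beta, had 33 UMIs in all kept cells, and 14 of them lay in 5 interferon-responding cells and 7 in 2 other tumour cells. Per UMI sequenced, Ifnb1 was 22.02 times as frequent in members as in other tumour cells of the control library (95% interval 6.01 to 88.0) and 25.4 times in the SG-free library (4.83 to 251), from 7 and 5 UMIs and from 7 and 2 UMIs. The intervals treat UMIs as independent, although 1 control member held 5 of its library's 7 and 1 SG-free member held 6 of 7. All 7 cells with an Ifnb1 UMI held Cxcl10, with 193, 20 and 7 UMIs in the control members, 74 and 59 in the SG-free members, and 17 and 27 in the other cells. C1qa had 2 UMIs in 1 of these cells and none in the rest.

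Members with at least 10 Cxcl10 UMIs, a group defined after the values were seen, numbered 50 in the control library and 87 in the SG-free library and held 77.2% and 72.7% of the members' Cxcl10 UMIs. They were deeper than the other members, with medians of 15484 against 12213 UMIs and 10862 against 8839. Rsad2 stood at 405 against 43.5 CPM in the control library and 286 against 26.8 CPM in the SG-free library. Ccl5, a chemokine for T cells and monocytes, stood at 50.7 against 3.19 CPM and 16.8 against 2.61 CPM, and Gbp5 at 215 against 72.2 CPM and 245 against 79.3 CPM. Gbp7 gave log2 ratios of only 0.15 and 0.33, H2-K1 -0.04 and 0.24, and H2-D1 -0.08 and 0.09. Ly6a was lower in the control library, at 437 against 544 CPM, and higher in the SG-free library, at 969 against 730.3 CPM.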
